A study of Mus musculus with 6 samples.

Results

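The SOX transcription factors described here are 10 mouse genes, chosen by symbol and matched to the Ensembl identifiers of the count tables, out of 54146 genes listed in each table. They fall into 5 subgroups by sequence: SoxB1 (Sox1, Sox2 and Sox3), SoxB2 (Sox21), SoxC (Sox4 and Sox11), SoxD (Sox5 and Sox6) and SoxE (Sox8 and Sox9). The libraries came from mouse neocortex electroporated in utero at embryonic stage E14.5, from which fluorescent cells were sorted 24 hours later, at E15.5. The cells of all 6 libraries had received a green fluorescent protein plasmid driven by CAG (0.7 µg/µl) together with a hairpin plasmid driven by U6 (1 µg/µl). The hairpin was pre-miR-3607-5p in the Mir group (3 libraries) and a control sequence absent from the mouse genome in the Scr group (3 libraries). Each library pooled the cells of 2 wild-type embryos, whose strain the labels give as ICR in one place and as C57BL/6 in another. The comparison of Mir with Scr asks what an excess of this microRNA does to gene expression in the sorted neocortical cells.

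SOX proteins bind DNA through a high-mobility-group (HMG) box and usually act with partner factors. In the developing cortex the SoxB1 factors and SOX9 are known for keeping progenitors in their undifferentiated state, SOX21 counteracts SoxB1 activity, and the SoxC factors promote neuronal gene expression in newborn neurons. The SoxD factors lack a transactivation domain of their own. SOX5 controls the timing of deep-layer neurons, and SOX6 acts in cortical progenitors and in inhibitory neurons that enter the cortex from the ventral telencephalon.

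Depth was 12724511 to 16684038 counts in genes per library. The sorted cells had the markers of their label, here 9 cortical progenitor markers (among them Pax6, Emx1 and Lhx2). These summed to 1477 to 2170.5 CPM in Scr and 2172 to 2769 CPM in Mir, where CPM is counts per 1000000 of the normalized library size. Excitatory neuron markers (7 genes) summed higher, to 4071 to 4778 CPM in Scr and 3529 to 3847 CPM in Mir. The libraries therefore held neuronal as well as progenitor RNA, and sums of different genes do not give shares of cells. Markers of other cell types were uneven between libraries. Inhibitory neuron markers (10 genes) summed to 251, 1001 and 353 CPM in Scr replicates 1, 2 and 3 and to 134, 115 and 320 CPM in Mir replicates 1, 2 and 3. Endothelial markers (10 genes) summed to 99.3, 235 and 16.5 CPM and to 4.90, 4.66 and 43.7 CPM in the same order. Mural and mesenchymal markers (5 genes) summed to 153 CPM in Mir replicate 2 and to 3.12 to 72.4 CPM in the other 5 libraries, with 1380 counts of Col3a1 in Mir replicate 2. Scr replicate 2 and Mir replicate 3 had the most inhibitory neuron and endothelial marker RNA of their groups, and in bulk RNA fewer cells of a type and less RNA per cell cannot be told apart.

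The hairpin sequence and its matches in the SOX genes are printed first, since the seed of a microRNA (bases 2 to 8) is the part that pairs with its targets. The strand after the hairpin loop was read from the oligonucleotide in the labels, with the seed in capitals.
Hairpin strand: gCATGTGAtgaagcaaatcag
In the 3′ untranslated regions of the 10 genes a single seed match was found, in Sox11, 6677 nt after the stop codon (chr12:27334530-27334554, minus strand, GRCm38). The capitals mark the match to bases 2 to 8, TCACATG.
Sox11 site: gcttacacacTCACATGcgtggctc
The matches searched were TCACATG (to bases 2 to 8) and CACATGA (to bases 2 to 7 followed by A), which overlap within the 8mer TCACATGA, on the transcript strand. Of 12749 tested genes with a 3′ untranslated region, 17.3% held at least 1 match, against 1 of the 10 SOX genes. The Sox6 transcript searched, the one with the longest coding sequence, has a 3′ untranslated region of only 247 nt.

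Coding sequences held such a match in 7 of the 10 genes, against 15.3% of 12955 tested coding sequences. In all 4 SoxB genes the match lies at the same place, within the HMG box, so these are copies of 1 ancestral stretch and not independent matches. The 27 bases at this place are given for the 10 genes, each found as the in-frame stretch most like the 90 bases around the Sox2 match, with the 7 bases at the position of CACATGA in capitals.
Sox1 (SoxB1): cgcgcgctgCACATGAaggaacacccg
Sox2 (SoxB1): cgcgctctgCACATGAaggagcacccg
Sox3 (SoxB1): cgtgcggtgCACATGAaggagtacccg
Sox21 (SoxB2): cgagccatgCACATGAaggagcatccc
Sox4 (SoxC): cgcctcaagCACATGGctgactaccct
Sox11 (SoxC): cgcctcaagCACATGGctgattatccc
Sox5 (SoxD): agcaaacagCACCTGGagaagtacccg
Sox6 (SoxD): agcaaaatcCACCTAGagaagtaccca
Sox8 (SoxE): cgtgtgcagCACAAGAaagaccaccca
Sox9 (SoxE): cgcgtgcagCACAAGAaagaccacccc
The windows lie at chr8:12396682-12396708 for Sox1, chr3:34650713-34650739 for Sox2, chrX:60892804-60892830 for Sox3 and chr14:118235417-118235443 for Sox21. The SoxC and SoxE genes share 6 of the 7 bases there, Sox5 shares 5 and Sox6 shares 4. Over the 90 bases, identity was 81.1 to 88.9% among the SoxB genes, 88.9% between Sox4 and Sox11, 80.0% between Sox5 and Sox6 and 85.6% between Sox8 and Sox9, while Sox2 and Sox6 shared 54.4%. The remaining coding matches were at other places. Sox2 had a second match to bases 2 to 7, Sox5 and Sox8 had matches to bases 2 to 8, and Sox6 had a match to bases 2 to 7. None of these matches was tested for function, and the fold changes of their genes follow below.

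The cells carried SOX RNA of very unequal abundance, dominated by SoxC. Per kb of merged exons, the Scr libraries had 685 ± 28.9 CPM of Sox4 and 323 ± 25.8 CPM of Sox11 (SD, n = 3). Sox2 followed at 30.6 ± 2.94, Sox9 at 20.9 ± 2.72, Sox21 at 15.3 ± 1.16 and Sox5 at 11.4 ± 1.15 CPM per kb (SD, n = 3). Sox1 was at 8.52 ± 1.46, Sox6 at 7.66 ± 1.96, Sox3 at 7.502 ± 1.65 and Sox8 at 4.43 ± 1.07 CPM per kb (SD, n = 3). In this order the 3 Scr libraries of neighbouring genes did not overlap, except for Sox1 with Sox6 and Sox6 with Sox3. Sox11 was 10.6 times above Sox2 in level per length. The length used for Sox4 includes a stretch shared with an antisense gene, described below. Sox5 and Sox6 have many transcripts, and with the longest transcript in place of all merged exons they were at 22.6 and 13.1 CPM per kb, above Sox9 and Sox1. In raw counts Sox4 stood at rank 1 of all genes in Mir replicates 1 and 2, rank 2 in Scr replicate 1 and rank 4 in the other 3 libraries, and Sox11 stood at rank 5 to 11. The 10 genes together took 0.652% of the normalized counts in Scr and 0.636% in Mir.

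**Figure D1:**
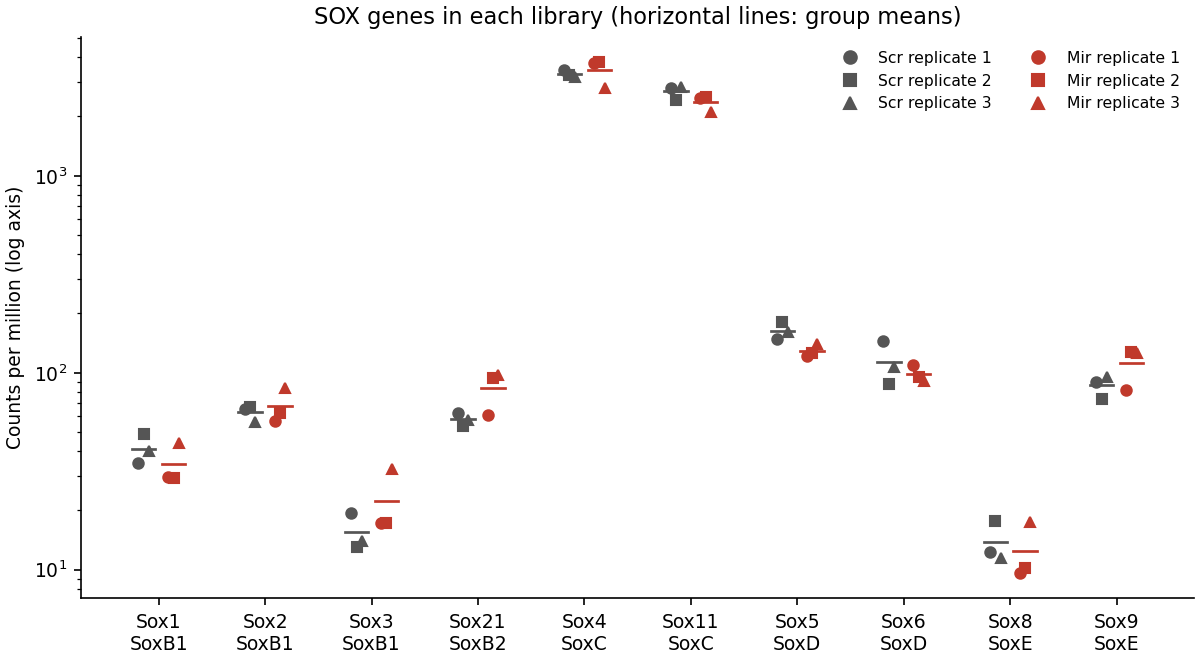
CPM (log axis) of the 10 SOX genes in each Scr (grey) and Mir (red) library, with group means as lines. Sox4 and Sox11 lie between 2104 and 3769 CPM and the other 8 genes between 9.67 and 182 CPM, and of the 10 genes Sox5 alone has groups that do not overlap.

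None of the 10 SOX genes passed the test between Mir and Scr. All 10 passed the filter on low counts, and edgeR's quasi-likelihood test with Benjamini-Hochberg adjustment over 16897 genes called 0 of them, where 0.00592% of all genes were called. DESeq2 also called 0 of the 10, against 3.64% of the genes to which it gave an adjusted p (1.44% higher and 2.2% lower in Mir), and limma-voom called 0 of them and 0% of all genes. At an unadjusted edgeR p under 0.05 there was 1 of the 10 higher in Mir, Sox21, against 6.57% of all genes, and 1 lower, Sox5, against 7.93%. Groups without overlap were found for 1 of the 10, Sox5, which was lower in Mir, against 20% of all genes (9.72% higher and 10.3% lower). These shares are too close to the background to be read as a result about the SOX genes. Means were higher in Mir for 5 and lower for 5, with a median log2 fold change of -0.04, beside -0.01 over all genes tested.

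**Figure D2:**
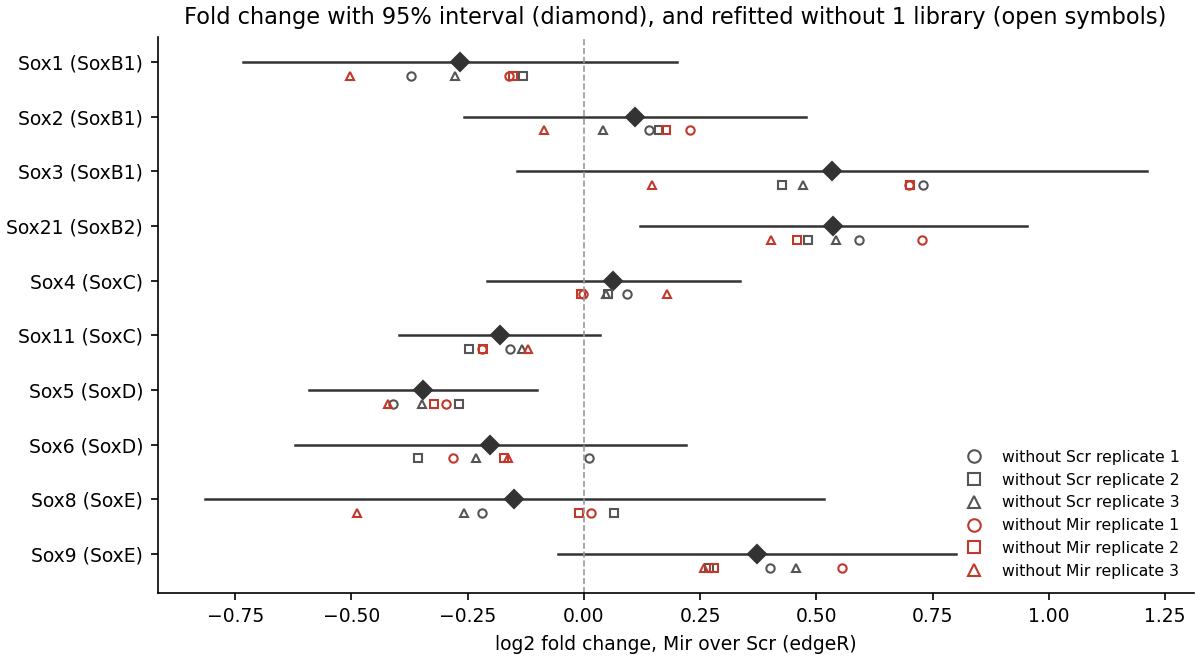
log2 fold change, Mir over Scr, of each SOX gene from edgeR (diamonds) with its 95% interval (lines), and the same value refitted without 1 library (open symbols). The intervals of Sox21 and Sox5 leave out 0 without adjustment for the number of genes, and leaving out Mir replicate 3 takes Sox3 from 0.53 to 0.15.

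The SoxB1 genes did not move as 1 block. Sox2, the SoxB1 factor used most widely to mark neural progenitors (ENSMUSG00000074637, chromosome 3, 34650405 to 34652461, a single exon), was at 65.2, 67.4 and 56.0 CPM in Scr replicates 1, 2 and 3 and at 57.0, 62.7 and 83.9 CPM in Mir replicates 1, 2 and 3. Only Mir replicate 3 lay above the Scr range. The log2 fold change of Sox2 was 0.11 ± 0.16 (SE), with a 95% interval of -0.26 to 0.48 and an edgeR adjusted p of 0.786, and it was -0.09 without Mir replicate 3. Sox3, its X-linked paralogue (ENSMUSG00000045179, chromosome X, 60891366 to 60893430, a single exon), was at 19.4, 13.1 and 13.97 CPM in Scr and at 17.3, 17.3 and 32.6 CPM in Mir. Again Mir replicate 3 was the highest library, and the other 2 Mir libraries lay inside the Scr range. Its log2 fold change was 0.53 ± 0.29, with an interval of -0.14 to 1.21 and an edgeR adjusted p of 0.442. It was 0.15 without Mir replicate 3 and 0.05 without both Scr replicate 2 and Mir replicate 3, a choice made after seeing the data.

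Sox1, the third SoxB1 gene (ENSMUSG00000096014, chromosome 8, 12395295 to 12400126, a single exon), pointed the other way. It was at 34.7, 48.7 and 40.04 CPM in Scr and at 29.5, 29.2 and 44.0 CPM in Mir, so that Mir replicates 1 and 2 lay below every Scr library and Mir replicate 3 lay among them. Its log2 fold change was -0.27 ± 0.20, with an interval of -0.73 to 0.20 and an edgeR adjusted p of 0.576. Without Mir replicate 3 it was -0.50 and without Scr replicate 2 it was -0.13. These are the libraries with the highest Sox1 in each group and also those highest in inhibitory neuron markers among the Mir libraries and among the Scr libraries. The part of inhibitory neurons in the Sox1 values was not tested. The summed SoxB1 level was 119.5 ± 9.62 CPM for Scr and 124.5 ± 31.4 CPM for Mir (SD, n = 3), and Sox1 made up 29.1, 37.7 and 36.4% of it in Scr and 28.4, 26.7 and 27.4% in Mir.

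Sox21, the SoxB2 gene (ENSMUSG00000061517, chromosome 14, 118233232 to 118237030, a single exon), had a fold change as large as that of Sox3 with a smaller error. It was at 62.5, 53.7 and 57.7 CPM in Scr and at 60.9, 94.0 and 97.3 CPM in Mir. Mir replicates 2 and 3 lay above every Scr library, and Mir replicate 1 lay inside their range. The log2 fold change was 0.54 ± 0.18, a fold of 1.45 with a 95% interval of 1.09 to 1.94, and the edgeR adjusted p was 0.268 (0.0936 by DESeq2). It ranged from 0.40 without Mir replicate 3 to 0.73 without Mir replicate 1, and it was 0.36 without both Scr replicate 2 and Mir replicate 3. An antisense noncoding gene, Gm4675, shares 713 bp (18.8%) of the Sox21 exon, and the strand setting of the counting is not given in the sources used here, so that reads of the shared stretch may belong to either gene. Gm4675 was at 11.5, 9.77 and 9.63 CPM in Scr and at 13.2, 16.2 and 18.9 CPM in Mir, with no overlap between groups and an edgeR adjusted p of 0.240.

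The SoxC genes, whose products turn on neuronal genes, were at nearly the same summed level in both groups, 5965 ± 270.1 CPM for Scr and 5796 ± 786 CPM for Mir (SD, n = 3). Sox4 (ENSMUSG00000076431, chromosome 13, 28948919 to 28953713, a single exon) was at 3437, 3243 and 3169 CPM in Scr and at 3738, 3769 and 2783 CPM in Mir. Mir replicates 1 and 2 were the highest of the 6 libraries and Mir replicate 3 the lowest. The log2 fold change was 0.06 ± 0.12, with an interval of -0.21 to 0.34 and an edgeR adjusted p of 0.840. Sox11 (ENSMUSG00000063632, chromosome 12, 27334264 to 27342574, a single exon) was at 2779, 2436 and 2830 CPM in Scr and at 2492, 2499 and 2104 CPM in Mir. Mir replicate 3 was again the lowest library, and the other 2 Mir libraries lay between the Scr values. Its log2 fold change was -0.18 ± 0.09, with an interval of -0.40 to 0.03 and an edgeR adjusted p of 0.414. Sox11 is the gene with the seed match in its 3′ untranslated region.

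The Sox4 values carry a limit of counting. The antisense noncoding gene Gm26735 covers 2616 bp (54.6%) of the Sox4 exon. It was itself at 922, 849 and 889 CPM in Scr and at 837, 848 and 657 CPM in Mir, for a log2 fold change of -0.18 ± 0.11 (adjusted p of 0.476 in edgeR). With the counts of both genes added together, an alternative chosen after seeing the data, the log2 fold change of Sox4 was 0.01 ± 0.11 (edgeR adjusted p of 0.966). The sum does not bring back reads of the shared stretch that were given to neither gene, and the strand setting is not known. It therefore does not settle this limit. The same limit holds for smaller stretches of Sox5 and Sox8. Antisense Sox5os1, at 4.47 to 6.95 CPM, shares 1330 bp (9.25%) of the Sox5 exons. Antisense 2810468N07Rik, at 1.48 to 4.27 CPM, shares 329 bp (10.6%) of the Sox8 exons.

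Both SoxD genes had lower means in Mir, and only for Sox5 did the groups separate. Sox5 (ENSMUSG00000041540, chromosome 6, 143828425 to 144781977, 25 merged exons) was at 149, 182 and 161 CPM in Scr and at 121, 126 and 139 CPM in Mir. Every Mir library lay below every Scr library, and the nearest were Mir replicate 3 and Scr replicate 1. The log2 fold change was -0.35 ± 0.11, a fold of 0.787 with a 95% interval of 0.664 to 0.933, and the edgeR adjusted p was 0.246 (0.112 by DESeq2). It stayed between -0.42 and -0.27 when each library was left out in turn. Without both Scr replicate 2 and Mir replicate 3 it was -0.33. Sox5 is carried by deep-layer neurons. The sum of 7 excitatory neuron markers was 4071, 4778 and 4151 CPM in Scr and 3847, 3529 and 3834 CPM in Mir, also without overlap. Taken singly, 0 of the 7 had groups without overlap, against 20% of all genes. Means were lower in Mir for 5 of them and higher for 2, Tbr1 and Neurod2. The part of these neurons in the Sox5 values was not tested. Scr replicate 2 and Mir replicate 3, with the highest Sox5 of their groups, also had the most inhibitory neuron marker RNA (1001 and 320 CPM). The part of inhibitory neurons in the Sox5 values was not tested either. The Sox5 coding sequence holds a match to bases 2 to 8 of the hairpin strand.

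Sox6 (ENSMUSG00000051910, chromosome 7, 115470872 to 116038796, 25 merged exons) was at 145, 88.0 and 107 CPM in Scr and at 110, 95.3 and 91.3 CPM in Mir. The Scr libraries spanned the whole Mir range. The log2 fold change was -0.20 ± 0.18, with an interval of -0.62 to 0.22 and an edgeR adjusted p of 0.647, and it was 0.010 without Scr replicate 1. Sox6 is also a gene of cortical inhibitory neurons. Scr replicate 2, the library with the most inhibitory neuron marker RNA, had the lowest Sox6 level, and the part of these neurons in the Sox6 values was not tested. Added together, SoxD RNA was at 294, 270 and 269 CPM in Scr and 231, 222 and 231 CPM in Mir, with no overlap between groups, as for Sox5 alone.

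The SoxE genes differed in level and in direction. Sox9, a factor of neural stem cells and of the switch to gliogenesis (ENSMUSG00000000567, chromosome 11, 112782224 to 112787760, 3 exons), was at 90.1, 73.6 and 95.1 CPM in Scr and at 82.0, 127 and 126 CPM in Mir. As for Sox21, Mir replicates 2 and 3 lay above every Scr library and Mir replicate 1 within their range. The log2 fold change was 0.37 ± 0.18, with an interval of -0.06 to 0.80 and an edgeR adjusted p of 0.400. It ranged from 0.26 without Mir replicate 3 to 0.55 without Mir replicate 1, and it was 0.17 without both Scr replicate 2 and Mir replicate 3. Mir replicate 2 had the most mural and mesenchymal marker RNA, at 153 CPM, and the highest Sox9 level by a small margin. Mir replicate 3 had 20.4 CPM of these markers, with nearly the same Sox9 level and with higher Sox21 and Tnc. The part of these markers in the Sox9, Sox21 and Tnc values was not tested. Sox8, a factor of glial precursors (ENSMUSG00000024176, chromosome 17, 25565892 to 25570686, 3 merged exons), was at 12.3, 17.7 and 11.5 CPM in Scr and at 9.67, 10.2 and 17.5 CPM in Mir. Scr replicate 2 and Mir replicate 3 were the highest libraries, as for Sox1. Its log2 fold change was -0.15 ± 0.29, with an interval of -0.82 to 0.52 and an edgeR adjusted p of 0.846, and it turned to 0.064 without Scr replicate 2 and to 0.015 without Mir replicate 1.

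**Figure D3:**
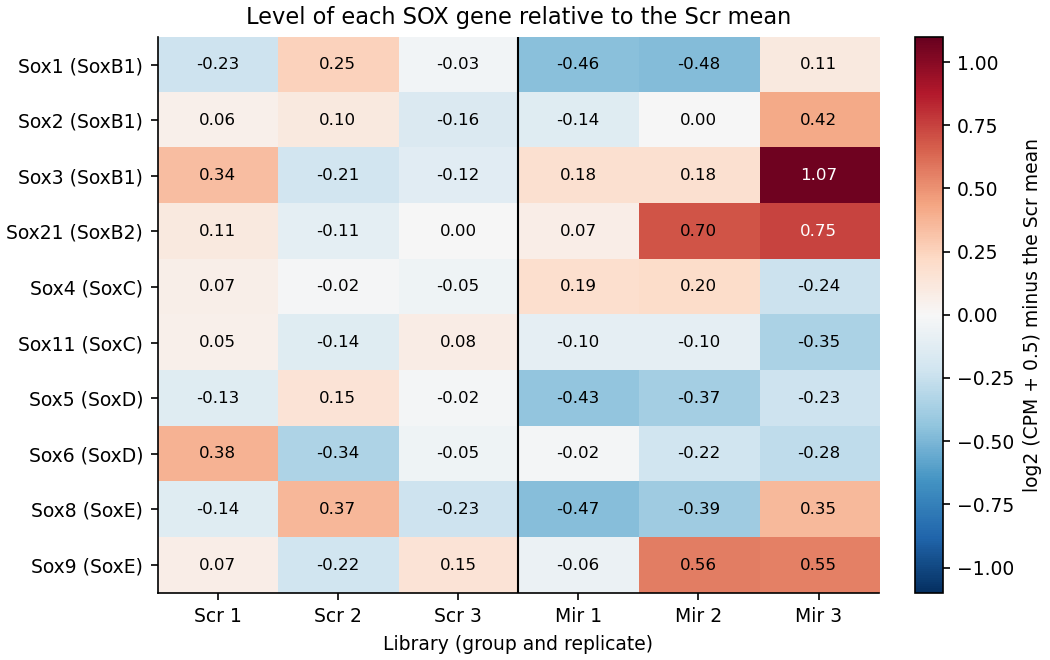
Level of each SOX gene in each library as log2 (CPM + 0.5) minus the mean of the Scr libraries (colour and printed value). Sox5 is below 0 in every Mir library, Sox3 reaches 1.07 in Mir replicate 3, and Sox21 and Sox9 are at 0.55 to 0.75 in Mir replicates 2 and 3 and at 0.07 and -0.06 in Mir replicate 1.

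The library that stood highest therefore differed between subgroups. Mir replicate 3 had the highest Sox2, Sox3 and Sox21 of the 6 libraries and the lowest Sox4 and Sox11. Scr replicate 2 had the highest Sox1, Sox5 and Sox8 and the lowest Sox3, Sox6, Sox9 and Sox21. Cortical progenitor markers summed to 1477 CPM in Scr replicate 2, the lowest library, and to 2769 CPM in Mir replicate 3, the highest. Whether the progenitor content of the pools has a part in the values of single SOX genes was not tested.

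Subgroups were then compared inside each library, as the ratio of the counts of 2 SOX genes, which needs no scaling between libraries. Each of 9 pairs was compared by an exact two-sided permutation test over the 6 libraries, which cannot give a p below 0.1, so that no pair could pass 0.05. Several pairs share a gene and are not independent. The ratio of Sox21 to Sox2 was 0.958, 0.796 and 1.03 in Scr and 1.07, 1.499 and 1.16 in Mir. Every Mir ratio was above every Scr ratio, a difference of 0.41 on the log2 scale (exact p = 0.1, adjusted p = 0.225 over the 9 pairs), and it was 0.27 without Mir replicate 2. The ratio of Sox5 to Sox9, a neuronal against a progenitor gene, was 1.65, 2.47 and 1.69 in Scr and 1.48, 0.996 and 1.11 in Mir. It was lower in every Mir library, by 0.70 on the log2 scale (exact p = 0.1, adjusted p = 0.225), and the difference was -0.51 without Scr replicate 2.

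Within SoxB1, the ratio of Sox1 to Sox2 was 0.533, 0.723 and 0.715 in Scr and 0.518, 0.466 and 0.525 in Mir, again with no overlap (difference -0.37, exact p = 0.1, adjusted p = 0.225). The groups of Sox1 to Sox3 did not overlap either, at 1.79, 3.71 and 2.86 in Scr and 1.70, 1.69 and 1.35 in Mir (difference -0.76, exact p = 0.1, adjusted p = 0.225). In both pairs Scr replicate 1 lay close to the Mir libraries. The ratio of Sox4 to Sox11 was 1.24, 1.33 and 1.12 in Scr and 1.5001, 1.51 and 1.32 in Mir, with Mir replicate 3 just inside the Scr range (difference 0.23, exact p = 0.2, adjusted p = 0.300). The ratio of Sox5 to Sox6 differed by -0.17 (exact p = 0.7), that of Sox8 to Sox9 by -0.53 (exact p = 0.3), that of Sox2 to Sox3 by -0.39 (exact p = 0.2) and that of Sox11 to Sox2 by -0.28 (exact p = 0.5, and -0.03 without Mir replicate 3), with overlapping groups in each.

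**Figure D4:**
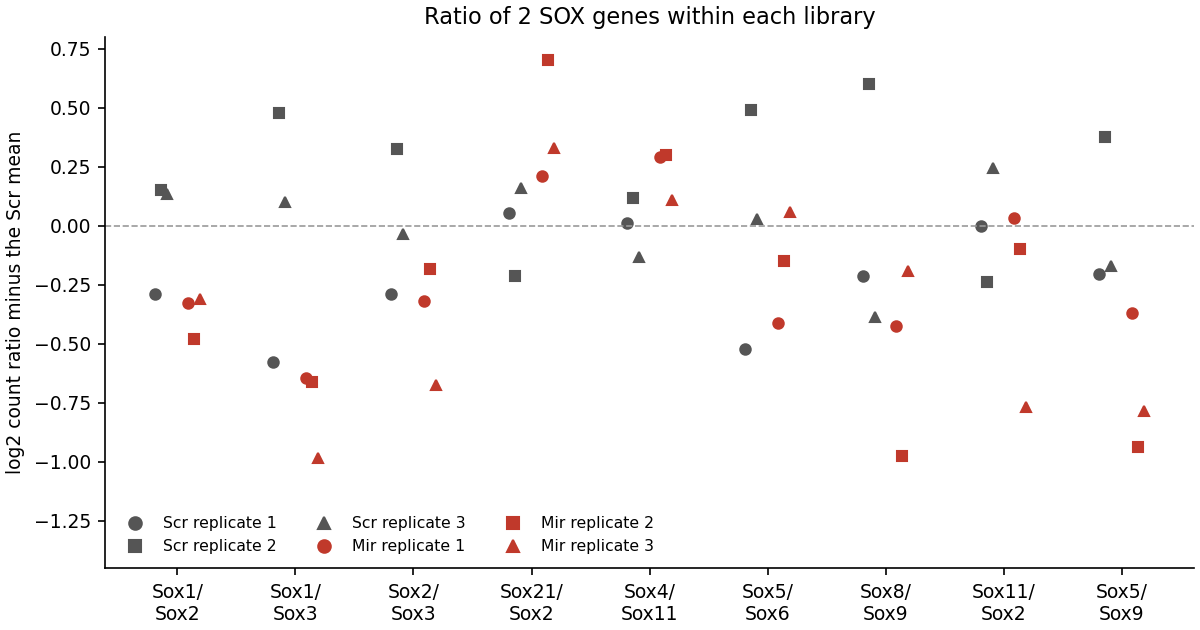
log2 ratio of the counts of 2 SOX genes within each library, minus the mean of the Scr libraries, for the 9 pairs compared. Mir libraries (red) lie wholly on 1 side of the Scr libraries (grey) for Sox1/Sox2, Sox1/Sox3, Sox21/Sox2 and Sox5/Sox9. Such a separation has an exact p of 0.1, and pairs that share a gene are not independent.

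The other 10 SOX genes of the mouse were mostly rare here, and 0 of the 7 that passed the filter were called by edgeR. At an unadjusted edgeR p under 0.05 there was 1 lower, Sox7, against 7.93% of all genes. DESeq2 also called 0 of them, but it gave no adjusted p to Sox15 and Sox30. The exception in level was Sox12, the remaining SoxC gene, at 141, 173 and 150 CPM in Scr and 137, 155 and 180 CPM in Mir (log2 fold change 0.02 ± 0.13, edgeR adjusted p of 0.954). Per length it was at 34.7 ± 3.70 CPM per kb in Scr (SD, n = 3), close to Sox2. The SoxF genes Sox7, Sox17 and Sox18, factors of blood vessel endothelium, had 40, 27 and 75 counts in Scr replicate 1, 134, 99 and 182 in Scr replicate 2, and 19, 0 and 5 in Scr replicate 3. In Mir they had 0 counts in replicates 1 and 2 and 23, 19 and 30 counts in replicate 3. A count of 0 allows up to 0.189 CPM in Mir replicate 1 and 0.191 CPM in Mir replicate 2. Their log2 fold changes were -3.16 ± 1.35, -2.84 ± 1.69 and -3.25 ± 1.56 (0.343, 0.480 and 0.389 as adjusted p in edgeR). Without Scr replicate 2 they were -2.03, -1.26 and -2.17, and without Mir replicate 3, where every Mir library is at 0, a fitted value is no bound and none is given.

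The SoxF values moved with the endothelial markers. These 10 markers all had lower means in Mir, and their summed level ranged from 16.5 to 235 CPM in Scr and from 4.66 to 43.7 CPM in Mir. In Mir replicates 1 and 2, 7 and 6 of the 10 were at 0 counts, with Pecam1, Cdh5 and Cldn5 at 0 in both. Others were present there, and Egfl7 had 58 and 50 counts. The part of the endothelial markers in the SoxF values was not tested. Sox10, the SoxE factor of oligodendrocyte precursors, had 0, 8 and 10 counts in Scr and 16, 0 and 1 in Mir and was too low to be tested. Sox13, the third SoxD gene, was at 2.57, 4.78 and 2.23 CPM in Scr and 0.954, 3.45 and 4.68 CPM in Mir (log2 fold change -0.08 ± 0.57, edgeR adjusted p of 0.964). Sox15 and Sox30 were under 2 CPM in every library, at log2 fold changes of -0.23 ± 0.38 and 0.54 ± 0.70 (edgeR adjusted p of 0.824 and 0.763). Sox14, the SoxB2 paralogue of Sox21, had 1 count in all libraries together and Sry had 0, which allows up to 0.180 to 0.236 CPM per library.

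**Figure D5:**
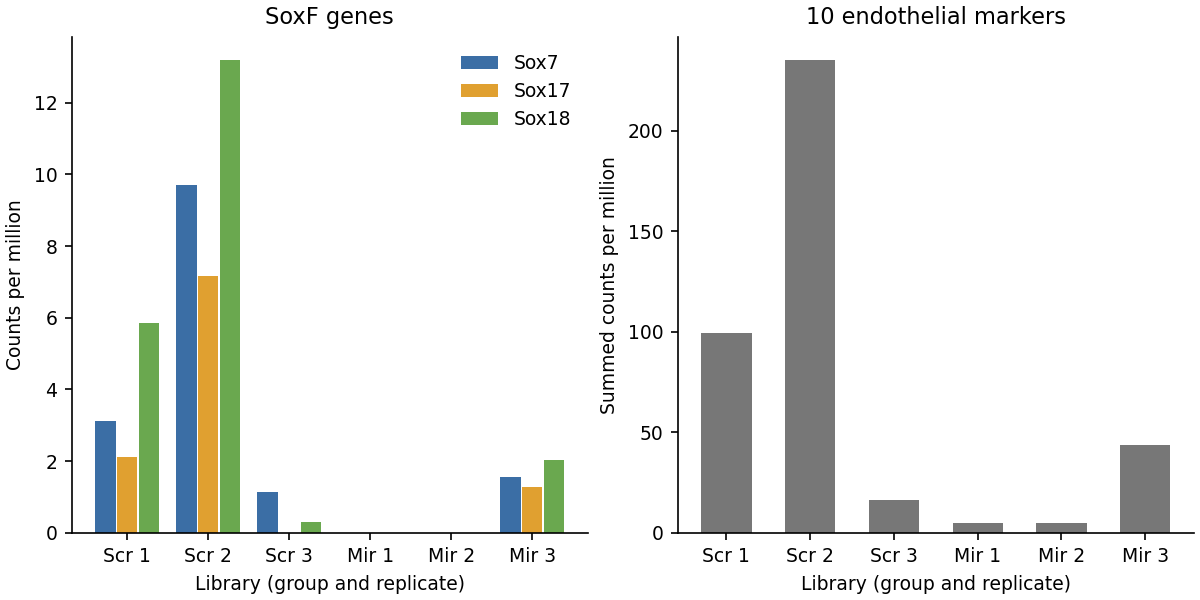
CPM of the SoxF genes Sox7, Sox17 and Sox18 (left) and the summed CPM of 10 endothelial markers (right) in each library. Scr replicate 2 is the highest library in both panels, and the SoxF genes are at 0 in Mir replicates 1 and 2.

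Partners and targets of SOX2 in neural progenitors were described beside it. All 13 genes of this list had higher means in Mir, where 48.8% of all genes did, with a median log2 fold change of 0.31 beside -0.01 over all genes, and 0 of the 13 were called by edgeR, DESeq2 or limma-voom (1 higher at an unadjusted edgeR p under 0.05, Egfr, against 6.57% of all genes). Egfr, a growth factor receptor gene, was at 0.72 ± 0.27 (edgeR adjusted p of 0.301), Pou3f3, a POU partner gene, at 0.34 ± 0.15 (0.356), Notch1 at 0.37 ± 0.16 (0.358) and the progenitor factor Nr2e1 at 0.31 ± 0.15 (0.391). Groups did not overlap, with Mir higher, for 3 of the 13, Egfr, Notch1 and Gli2, against 9.72% of all genes. The count was 9 of 13 and the median 0.12 without both Scr replicate 2 and Mir replicate 3, and 11 of 13 with a median of 0.14 without Scr replicate 2 alone. The cortical progenitor markers, which share Pax6 and Nes with this list, had higher means for 9 of 9, and their part was not tested. Sox2 itself, at 0.11, lay below the median of the list.

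Partners and targets of SOX4 and SOX11 went both ways, with 3 of 7 means higher and a median of -0.24 (-0.11 without Scr replicate 2 and -0.06 without both). None was called by edgeR, DESeq2 or limma-voom, with 1 higher (6.57% of all genes) and 1 lower (7.93% of all genes) at an unadjusted edgeR p under 0.05. The proneural gene Neurog2 was at 0.57 ± 0.21 (edgeR adjusted p of 0.295), the deep-layer factor gene Fezf2 at -0.66 ± 0.22 (0.274), the microtubule gene Dcx at -0.32 ± 0.14 (0.351) and Eomes, the defining factor of intermediate progenitors, at 0.65 ± 0.31 (0.388). Of 6 deep-layer genes linked to SOX5, with no direction of regulation assumed, 1 had a higher mean and 5 had lower means. This list shares Bcl11b and Tbr1 with the 7 excitatory neuron markers, and the SOX4 and SOX11 list shares Tubb3 with them. Over all genes 48.8% had a higher mean. The median of the 6 was -0.48, and 0 were called by edgeR, DESeq2 or limma-voom. At an unadjusted edgeR p under 0.05 there were 2 lower, against 7.93% of all genes. The median was -0.23 without Scr replicate 2 and -0.75 without Mir replicate 3. Beside Fezf2 these were Foxp2 at -0.52 ± 0.20 (edgeR adjusted p of 0.312), Bcl11b at -0.99 ± 0.46 (0.380) and Tle4 at -0.44 ± 0.24 (0.448), and the sixth, Tbr1, was at 0.04 ± 0.13. Bcl11b, which inhibitory neurons also carry, was at 261, 682 and 307 CPM in Scr and 143, 141 and 347 CPM in Mir. Scr replicate 2 and Mir replicate 3 were the highest library of each group, as for the inhibitory neuron markers, whose part in the Bcl11b values was not tested. Without both Scr replicate 2 and Mir replicate 3, Bcl11b passed the edgeR test, at -1.0001 ± 0.11 (edgeR adjusted p of 0.0407). This choice was made after seeing the data and drops the library with the highest Bcl11b in each group. The fold hardly moved and the error shrank from 0.46. In this setting edgeR called 29 of all genes, against 1 with all libraries, so the pass is no independent result about Bcl11b.

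Genes that act with SOX9 in gliogenesis went both ways. Means were higher for 5 of the 8, beside 48.8% of all genes, and lower for 3. The median was 0.31, and it was 0.03 without both Scr replicate 2 and Mir replicate 3. Slc1a3 and Fabp7, both with higher means, are also cortical progenitor markers, whose part was not tested. Tnc, which encodes the matrix protein tenascin-C, was at 52.5, 31.4 and 51.9 CPM in Scr and at 60.1, 87.9 and 106 CPM in Mir, higher in every Mir library, with a log2 fold change of 0.90 ± 0.26. DESeq2 called Tnc (adjusted p of 0.0168), as it called 1.44% of the genes it adjusted as higher in Mir, and edgeR did not (adjusted p of 0.234). Without both Scr replicate 2 and Mir replicate 3 the log2 fold change of Tnc was 0.50 ± 0.18 (edgeR adjusted p of 0.213). Over all genes, groups did not overlap for 9.72% with Mir higher and for 10.3% with Mir lower. Nfia, a gliogenic factor induced by SOX9, was lower in every Mir library, at 441, 448 and 477 CPM in Scr and 371, 383 and 292 CPM in Mir (log2 fold change -0.39 ± 0.11, edgeR adjusted p of 0.240). The other lower means were those of its paralogue Nfib, at -0.20 ± 0.08 (0.328), and of the WNT inhibitor gene Apcdd1, named after its value was seen, which was at -1.02 with overlapping groups. Of the higher genes, the membrane protein gene Mmd2 was at 0.25 ± 0.11 (0.356).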

How the data were processed

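The authors deposited raw read counts per gene for each library, as whole numbers without normalization. HISAT2 2.1.0, HTSeq 0.11.0, DESeq2 1.18.1 and the build mm10 (GRCm38) are listed per the submitters' processing notes. Annotation and strand setting were not given in the sources used here. The 5 summary lines that name no gene were kept out, which left 21.9 to 23.6% of the listed reads. Symbols, exons and coordinates came from GENCODE M21 on GRCm38 (54079 of 54146 identifiers matched).

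Counts were tested with edgeR 4.0.16 in R 4.3.3 (quasi-likelihood test, group as the only term, TMM normalization, filterByExpr, 16897 genes, Benjamini-Hochberg adjustment, threshold 0.05), with DESeq2 1.42.0 and limma-voom (limma 3.58.1) as alternatives. On simulated counts with 200 changed genes edgeR recovered 97 of 100 genes changed by 4-fold and 51 of 100 by 2-fold. Of its 156 calls 148 were changed genes, against 169 of 226 for DESeq2 and 144 of 151 for limma-voom. The simulated libraries shared 1 mean profile, without the uneven cell markers of the real ones. No change under 2-fold was simulated, so these rates do not cover folds like the 1.45 of Sox21. Fold changes are Mir over Scr ± SE with 95% intervals from the fit. Intervals cover this spread between pools of embryos, and reads amplified without molecular identifiers do not count molecules; limits for counts of 0 use 3 counts. Ratios used a pseudocount of 0.5. Other settings tried were RLE normalization, other filters, a replicate block and each library left out. The text names all 20 SOX genes and, of each partner list, the 4 genes of smallest p, with Tbr1, Gli2 and Apcdd1 added after their values were seen. Genes that a partner list shares with a marker list are named as well. Members and lists were chosen with earlier results of these data known. Of the progenitor marker list, 1 gene is not reported here and its sums leave it out.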

Additional observations from a re-analysis of the deposited data

How the results depend on the processing

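Under all 13 alternatives 0 of the 10 SOX genes were called. Over all genes, edgeR called 1; with no filter on low counts it called 31, DESeq2 called 534, limma-voom called 0, and edgeR called 0 to 2 when each library was left out in turn and 29 without both Scr replicate 2 and Mir replicate 3. With a replicate block edgeR called 0 genes and 0 of the 10, and the block changed the direction of no SOX gene or pair. The labels name no pairing by number. Correlations of same-numbered deviations were 0.248, -0.147 and -0.0866. They cannot decide whether the libraries were paired, since deviations from a mean of 3 libraries constrain one another. Of 131 refitted values of the 10 genes, 7 changed sign. When each library was left out, Sox2 ranged from -0.086 to 0.23, Sox4 from -0.0053 to 0.18, Sox6 from -0.36 to 0.010, Sox8 from -0.49 to 0.064, Sox12 from -0.10 to 0.12, Sox13 from -0.55 to 0.36 and the Sox5 to Sox6 ratio from -0.43 to 0.077; Sox2 was at -0.02 without both libraries. The cause was not tested. Sox1, Sox3, Sox5, Sox9, Sox11 and Sox21 kept their direction in each setting run. With 3 libraries a group, intervals of single genes remain wide.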

Other observations

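Noncoding genes that span the SoxB1 loci were looked at after their values were seen. Sox2ot, whose transcript spans the Sox2 gene, was at 32.8, 49.3 and 39.8 CPM in Scr replicates 1, 2 and 3 and at 17.998, 20.4 and 49.3 CPM in Mir replicates 1, 2 and 3. Sox1ot, which spans Sox1, was at 9.82, 26.6 and 13.5 CPM in Scr and at 8.90, 7.79 and 17.2 CPM in Mir. Scr replicate 2 and Mir replicate 3 were the highest libraries for both, as for Sox1 and Sox8, while Sox2 in Mir replicates 1 and 2 stayed within the Scr range. Their log2 fold changes were -0.48 ± 0.38 (edgeR adjusted p of 0.594) and -0.56 ± 0.43 (edgeR adjusted p of 0.585). The inhibitory neuron markers were also lowest in Mir replicates 1 and 2, and their part in these values was not tested.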
